A study of Mus musculus with 6 samples.

Results

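Regions that carried 5-methylcytosine (5mC) in mouse fibroblasts, and in which induced pluripotent stem (iPS) cells had 5-hydroxymethylcytosine (5hmC) instead, were followed through an intermediate stage of reprogramming. The regions were chosen by the peak lists of 4 libraries. They are the fibroblast 5mC peaks that overlapped no fibroblast 5hmC peak, overlapped an iPS 5hmC peak by at least 1 bp, and overlapped no iPS 5mC peak. 34613 of the 104011 fibroblast 5mC peaks met this rule, among 663518 peaks in the 6 lists of the series. The number of regions and their state in fibroblasts and iPS cells are therefore descriptions and not findings. The day-3 lists of both marks had no part in the choice.

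5mC is the methylated form of cytosine, found in mammals mainly at CpG dinucleotides and associated at many promoters and enhancers with stable silencing. The TET enzymes oxidise 5mC to 5hmC, which is an intermediate on the route to unmodified cytosine and also a lasting mark in its own right. 5hmC is abundant in pluripotent cells, where Tet1 is highly expressed, and scarce in cultured fibroblasts.

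In the reprogramming system used, doxycycline switches on Tet1, Sox2, Klf4 and c-Myc in cells derived from mice that were themselves made from iPS cells. Oct4, the factor that most reprogramming cocktails contain, is not among them. The stages were fibroblasts at passage 4, fibroblasts given doxycycline for 3 days at passage 4 (day 3), and iPS cells at passages 10 to 15, obtained with the same 4 factors. All were of the strain OG2-GFP/Rosa26-M2rtTA, and the change to doxycycline was also a change to embryonic stem cell medium. The iPS cells were a single line, grown on feeder cells that the protocol removed by a short plating. Each of the 3 stages had 1 library for 5hmC and 1 for 5mC. With no replicates, neither classes of regions nor stages could be tested against each other. The 95% Wilson intervals below cover counting error only, and neighbouring peaks are not independent. The number of reads per library is unknown, and a peak missing from a list can mean that the mark was absent or that the library was too shallow to call it. The rule rests on absence from the fibroblast 5hmC list and the iPS 5mC list, which are the shortest of the 6, with 42301 and 61171 peaks.

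Of the 92420 fibroblast 5mC peaks without fibroblast 5hmC, 37.5% had 5hmC alone in iPS cells. The remaining peaks served for comparison. 25475 had both marks in iPS cells, 8925 had 5mC alone and 23407 had neither. Peaks of these 4 classes come from the same list, so they share the fibroblast 5mC library and its depth.

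The regions with 5hmC alone in iPS cells were typical fibroblast 5mC peaks in size. Their median width was 930 bp (quartiles 812 and 1109), against 1095 bp where both marks were present in iPS cells, 911 bp where 5mC was alone and 840 bp where neither was present. Their median score, which is the peak caller's measure of confidence within the fibroblast 5mC list, was 87.5, against 141.5, 86.0 and 68.7 in the same 3 classes. They covered 35.1 Mb in all.

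iPS 5hmC lay over these regions and not merely at their edges. A single iPS 5hmC peak overlapped 33435 of them, 2 peaks overlapped 1160 and 3 peaks overlapped 18. The covered part was 93.8% of the region's width at the median (quartiles 80.5% and 100%). In 11730 regions, or 33.9%, the cover was complete, and in 32641, or 94.3%, it reached at least 50% of the width. The centres of the fibroblast 5mC peak and the iPS 5hmC peak lay 121 bp apart at the median (quartiles 51 and 322 bp). This offset is shorter than the sequenced fragments, which were 300 to 500 bp long.

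Few regions lay close to the limits of the rule. 249 regions were covered by iPS 5hmC for 50 bp or less, and 321 unmarked peaks missed an iPS 5hmC peak by less than 50 bp. An iPS 5mC peak lay within 50 bp of 209 regions, and 149 peaks with both marks were excluded by 50 bp or less of iPS 5mC. A fibroblast 5hmC peak lay within 50 bp of 126 regions, and 109 peaks were excluded by 50 bp or less of fibroblast 5hmC. The typical region was far from such limits. The nearest iPS 5mC peak was 5069 bp away at the median, and the nearest fibroblast 5hmC peak was 11404 bp away.

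The day-3 libraries show what state these regions had after 3 days of factor expression. At day 3, 12170 of the 34613 regions, or 35.2% (34.7 to 35.7), already had a 5hmC peak. Over all fibroblast 5mC peaks this share was 30.9%, and over those without fibroblast 5hmC it was 27.7%. Both backgrounds include the regions themselves. Among the 57807 other fibroblast 5mC peaks without fibroblast 5hmC it was 23.3% (22.95 to 23.6). The 5mC peak was still listed at day 3 in 31205 regions, or 90.2% (89.8 to 90.5), which is close to the 89.7% of all fibroblast 5mC peaks and the 89.5% of those without fibroblast 5hmC. The absence of 5mC that defines the regions in iPS cells was thus not yet seen in most of them at day 3.

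The 2 marks combined into 4 states at day 3. The most frequent was 5mC alone, in 20184 regions or 58.3% (57.8 to 58.8). Both marks were present in 11021 regions, or 31.8% (31.4 to 32.3). Neither was present in 2259, or 6.53% (6.27 to 6.79). 5hmC without 5mC, the state that these regions have in iPS cells, was the least frequent, with 1149 regions or 3.32% (3.14 to 3.51). Among the 57807 other fibroblast 5mC peaks without fibroblast 5hmC, the shares in the same order were 67.5%, 21.6%, 9.20% and 1.67%. 5hmC without 5mC was thus the least frequent state there too, and rarer than in the regions. Such a precipitation averages over cells, so regions with both marks can hold a mixture of cells or molecules with 1 mark each.

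**Figure D1:**
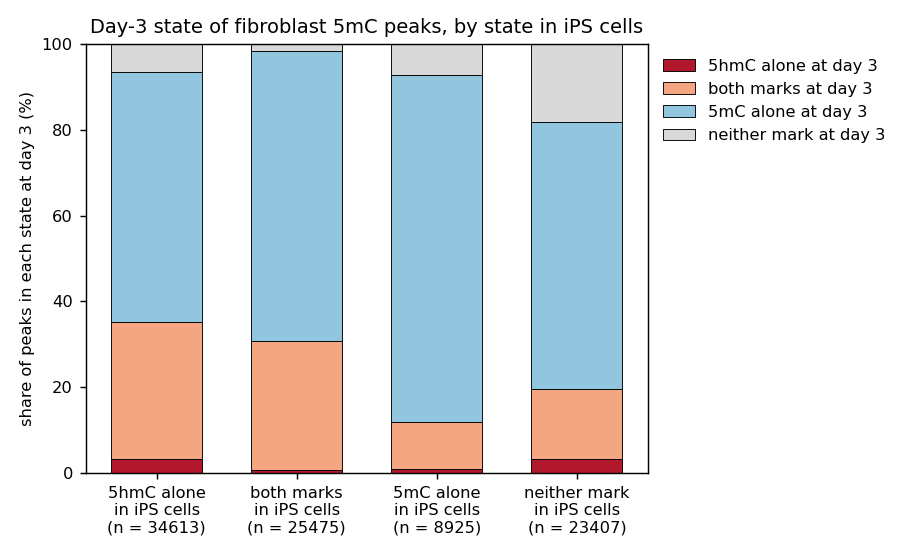
Share of fibroblast 5mC peaks in each of 4 states at day 3, as stacked bars that add up to 100%, for the 4 states in iPS cells (1 library per stage and mark). 5hmC at day 3 (both red segments) makes up 35.2% of the regions with 5hmC alone in iPS cells, against 30.8%, 11.9% and 19.5% in the other bars.

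Regions with 5hmC alone in iPS cells had the highest share of day-3 5hmC of the 4 classes. The share was 35.2%, against 30.8% (30.2 to 31.3) of peaks with both marks in iPS cells, 11.9% (11.2 to 12.6) of peaks with 5mC alone and 19.5% (19.0 to 20.03) of peaks with neither. The differences were 4.40, 23.3 and 15.6 percentage points, and all 3 were larger than the counting error. For day-3 5mC the order was another one. The share was 90.2%, against 97.7% (97.5 to 97.9) of peaks with both marks in iPS cells, 92.1% (91.5 to 92.6) of those with 5mC alone and 78.7% (78.2 to 79.2) of those with neither. With each list cut to its 42301 best-scoring peaks the share of the regions was 77.4%, above the 74.03% of peaks with 5mC alone, so that the order of these classes turned. 5hmC without 5mC at day 3 was found in 3.32% of the regions, against 0.608% (0.520 to 0.712) of peaks with both marks in iPS cells and 0.807% (0.641 to 1.01) of those with 5mC alone. The share among peaks with neither mark, 3.17% (2.95 to 3.398), overlapped that of the regions within counting error.

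Wide and high-scoring peaks overlap other lists more readily, and peaks with both marks in iPS cells were the widest and highest scoring. The comparison was therefore repeated within 5 equal groups of fibroblast 5mC peaks by score. Day-3 5hmC was more frequent in the regions with 5hmC alone than in peaks with both marks in each of the 5 groups, by 7.02 to 8.56 points. It was also more frequent than in peaks with 5mC alone, by 19.3 to 31.4 points. In the lowest-scoring group 30.3% of the regions had day-3 5hmC, against 23.3% of peaks with both marks, 11.1% of peaks with 5mC alone and 15.6% of peaks with neither mark. In the highest-scoring group the shares were 45.2%, 37.3%, 13.8% and 44.6%, so that the regions and the peaks with neither mark in iPS cells, of which this group holds few, differed by only 0.633 points and less than the counting error.

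By width, the order of the regions over the other classes held in each of 5 groups. The difference was 6.29 to 9.25 points to peaks with both marks, 18.8 to 27.3 points to peaks with 5mC alone and 9.57 to 14.1 points to peaks with neither. With peaks of each other class weighted to the same mix of score and width as the regions, the differences were 8.33, 22.9 and 11.03 points. The gap to peaks with both marks was thus wider than the 4.40 points found without this weighting.

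The regions and the peaks with both marks all overlap an iPS 5hmC peak, so these 2 classes were also compared at like iPS 5hmC. Grouped by the score of the iPS 5hmC peak, day-3 5hmC was found in 26.8% of the regions against 17.4% of peaks with both marks in the lowest-scoring of 5 groups, and in 48.1% against 44.5% in the highest. The difference ran from 3.62 to 9.42 points over the 5 groups. Grouped by the width of the iPS 5hmC peak, it ran from 2.33 to 8.68 points.

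**Figure D2:**
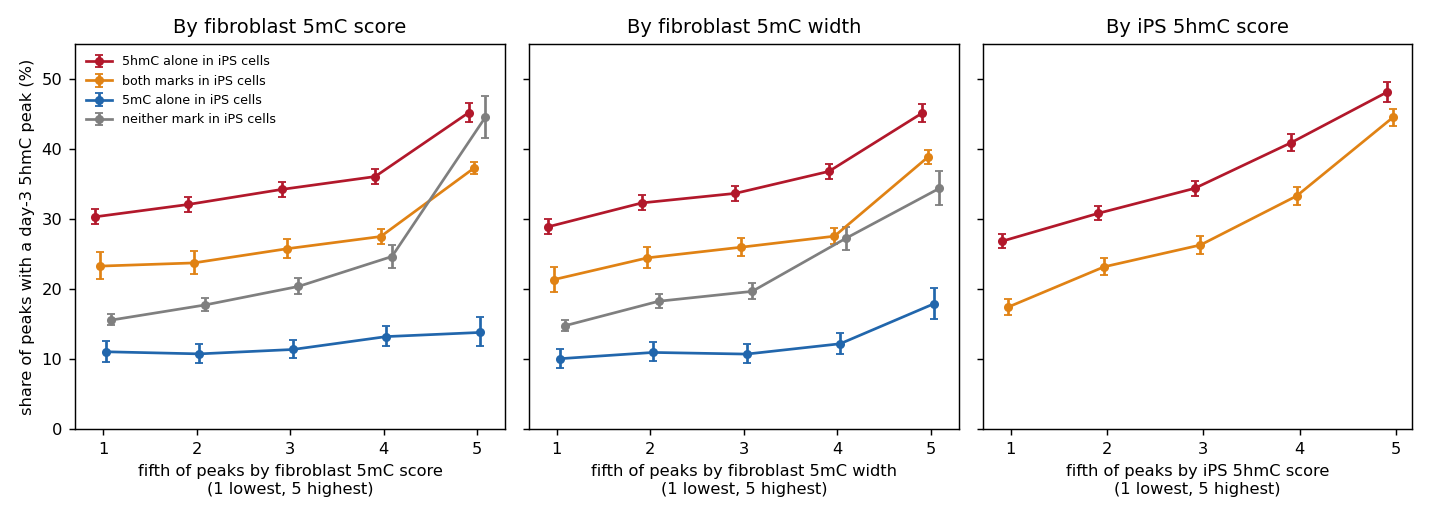
Share of fibroblast 5mC peaks with a day-3 5hmC peak in 5 equal groups by fibroblast 5mC score, by fibroblast 5mC width and by score of the iPS 5hmC peak (points, with 95% Wilson intervals as bars). Red points, for 5hmC alone in iPS cells, lie highest in each group, except that grey (neither mark) differs from red by less than the bars in the group with the highest fibroblast 5mC score, at 45.2% and 44.6%.

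Among peaks with both marks, this share was close to constant over the lower scores of iPS 5mC and higher at the top. In 5 equal groups by the score of the iPS 5mC peak, day-3 5hmC was found in 30.4%, 29.7%, 29.4%, 30.3% and 33.9% of peaks, from the lowest to the highest score. Fibroblast 5mC score and width were not held equal between these groups.

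Day-3 5hmC was centred on the regions. It covered 29.5% of their centres, 14.3% of the positions 1 kb away and 13.9% of those 5 kb away. In peaks with both marks in iPS cells it covered 22.7% of the centres, 13.1% at 1 kb and 14.5% at 5 kb. The surroundings of both classes thus had a like cover by day-3 5hmC, and the classes parted at the centre. In peaks with neither mark the values were 16.6% at the centre, 8.63% at 1 kb and 9.16% at 5 kb. In peaks with 5mC alone in iPS cells the cover at the centre, 8.85%, was above the 6.61% at 1 kb and equal to the 8.85% at 5 kb.

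iPS 5hmC covered 94.4% of the centres of the regions, a value that follows from the rule, 27.8% of positions at 1 kb and 23.6% at 5 kb. iPS 5mC peaks covered 4.28% of positions at 1 kb and 7.35% at 5 kb. The lower value at 1 kb follows in part from the rule, which allowed no iPS 5mC peak on the region. Peaks with neither mark, which also lack iPS 5mC, had 2.70% at 1 kb and 4.97% at 5 kb. Day-3 5mC covered 89.1% of the centres of the regions, 18.98% at 1 kb and 20.03% at 5 kb.

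**Figure D3:**
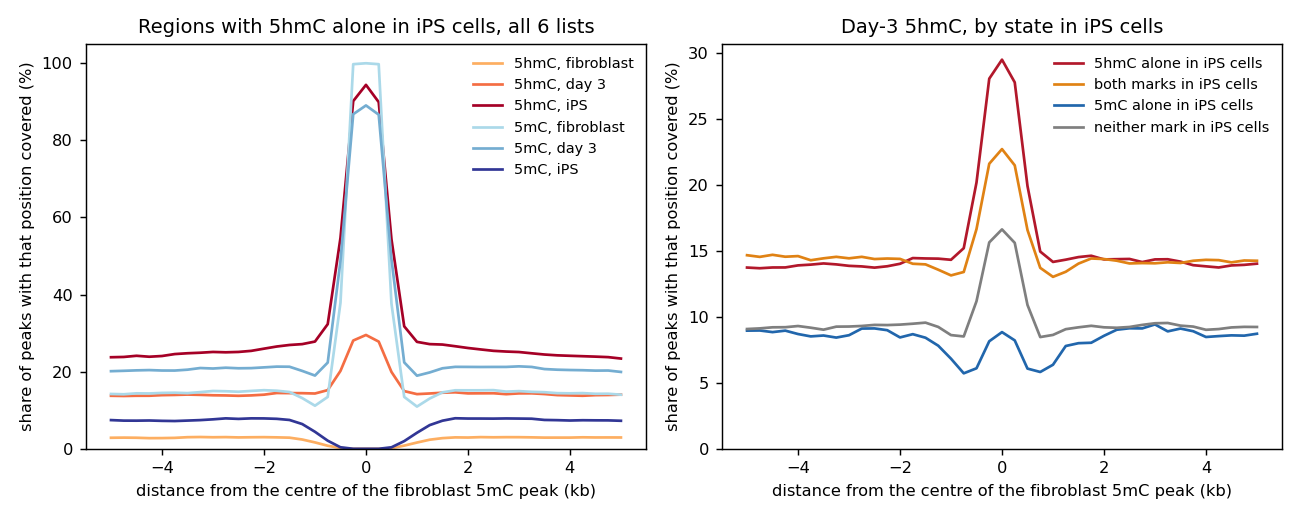
Share of fibroblast 5mC peaks whose position at a given distance from the peak centre (x axis, kb) is covered by a peak, for the 6 lists over the regions with 5hmC alone in iPS cells (left) and for day-3 5hmC over the 4 iPS classes (right). On the right, red reaches 29.5% at the centre against 22.7% for orange, while at 5 kb they lie at 13.9% and 14.5%. The centre values of the fibroblast and iPS lists on the left follow from how the regions were chosen.

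The regions were then split by day-3 5hmC. The 12170 with it were slightly wider than the 22443 without it, at a median of 958 bp against 917 bp, and had a higher median fibroblast 5mC score, at 93.8 against 84.5. Their iPS 5hmC peaks were also wider, at 1171 bp against 1011 bp, and higher scoring, at 177 against 136. The ranges overlapped widely. For the iPS 5hmC score the quartiles were 102 and 308 with day-3 5hmC and 84.4 and 229 without.

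Where day-3 5hmC was present, its peak covered 85.8% of the region at the median (quartiles 62.1% and 100%), and 10133 of the 12170 regions, or 83.3%, were covered for at least 50% of their width. The centres of the day-3 5hmC peak and the region were 240 bp apart at the median (quartiles 92 and 555 bp), against 121 bp for the iPS 5hmC peak. In 11736 regions, or 96.4% (96.1 to 96.7), the day-3 and the iPS 5hmC peak on the region also overlapped each other. Both peaks had to overlap the same region, and each covered most of it at the median. A high share therefore largely follows from the selection. Of the 22443 regions without day-3 5hmC, 4107, or 18.3% (17.8 to 18.8), had such a peak within 1 kb. For the others the peak was farther away, and the median distance over all 22443 was 4222 bp. The share within 1 kb was not particular to the regions. It was 19.0% for peaks with both marks in iPS cells, 13.7% for 5mC alone and 12.6% for neither.

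5hmC at day 3 did not go with less frequent 5mC at day 3. 90.6% (90.03 to 91.1) of the regions with day-3 5hmC kept a 5mC peak there, against 89.9% (89.5 to 90.3) of those without. This was not particular to the regions. The same comparison gave 98.0% against 97.5% among peaks with both marks in iPS cells and 93.2% against 91.9% among those with 5mC alone. Among peaks with neither mark it gave 83.8% against 77.5%. Among regions that kept the 5mC peak, its median score in the day-3 list was 188 with day-3 5hmC and 153 without.

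12251 of the 116087 day-3 5hmC peaks, or 10.6%, lay on the regions, as did 31406 of the 165869 day-3 5mC peaks, or 18.9%, and 34808 of the 174079 iPS 5hmC peaks. Day-3 5hmC peaks on the regions had a median score of 165.5 and a median width of 1070 bp, against 113 and 913 bp for those off them. This was not particular to the regions. Counted per fibroblast 5mC peak, the day-3 5hmC peak had a median score of 176 on the regions, against 157 on peaks with both marks in iPS cells, 127 on peaks with 5mC alone and 169 on peaks with neither. The iPS 5hmC peaks, which the rule used, had a median score of 149 on the regions against 199 on peaks with both marks.

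Along the genome the regions were spread widely, with some local grouping. Of the 15536 windows of 100 kb that held a fibroblast 5mC peak without fibroblast 5hmC, 10816 held at least 1 region and 280 held at least 10. In the 3388 windows with at least 10 such 5mC peaks, the regions made up 28.6% to 50% of them between the quartiles, with extremes of 0% and 91.7%. The next 5mC peak along the chromosome was again a region with 5hmC alone in 42.4% of cases (41.9 to 42.9), and in 44.4% (43.7 to 45.2) when it lay within 5 kb, against a share of 37.5% among all these peaks. Peaks with both marks followed one another in 34.5% of cases, and in 40.9% within 5 kb, against a share of 27.6%. For peaks with 5mC alone this was 13.7% and 15.7% against 9.66%. For peaks with neither mark it was 35.0% and 29.8% against 25.3%. Local grouping was thus seen in each class. The next peak lay within 5 kb for 15707 of 34607 regions but for 7706 of 23398 peaks with neither mark. The mix of classes within 5 kb therefore differs from that of all peaks, and the classes cannot be ranked by the values within 5 kb.

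The regions formed 19948 uninterrupted runs along the list of 5mC peaks without fibroblast 5hmC. Most runs were short, with 11916 of 1 region and 4496 of 2. The runs of 3 or more held 13705 regions. The longest, on chromosome 10 from 60995596 to 61133581 (mm9), had 14 regions over 138 kb, of which 5 had 5hmC and 12 had 5mC at day 3. A run on chromosome 3 from 89760374 to 89993610 had 12 regions over 233 kb, 5 of them with day-3 5hmC and all with day-3 5mC. A run on chromosome 13 from 46980234 to 47062345 had 12 regions over 82.1 kb, 7 with day-3 5hmC and 11 with day-3 5mC. Over these 3 runs 5hmC peaks covered 6.99, 0.932 and 4.91 kb in fibroblasts, 22.9, 26.2 and 24.5 kb at day 3 and 36.7, 36.2 and 29.3 kb in iPS cells. iPS 5mC peaks covered 0.893, 0 and 1.77 kb of them, where those of fibroblasts had covered 13.6, 10.9 and 15.1 kb. Each region was chosen for fibroblast 5mC and iPS 5hmC and against iPS 5mC. These contrasts between fibroblasts and iPS cells therefore largely follow from the rule.

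A region more often had day-3 5hmC where the region before it had it too. 7968 pairs of successive regions lay within 5 kb, and 393 of these pairs lay on 1 common day-3 5hmC peak. Leaving those out, 49.6% (47.7 to 51.5) of the 2738 regions that followed a region with day-3 5hmC had it as well, against 29.7% (28.4 to 31.0) of the 4837 that followed one without. The same shares were not computed for other fibroblast 5mC peaks. Whether this grouping is particular to the regions is therefore not known.

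The window with the most regions was on chromosome 8 from 111300001 to 111400000. It held 32 fibroblast 5mC peaks without fibroblast 5hmC, of which 19 had 5hmC alone in iPS cells. 13 of these 19 had 5hmC and 18 had 5mC at day 3, while 20 of all 32 had day-3 5hmC. From fibroblasts over day 3 to iPS cells, 5hmC peaks covered 2.25, 43.6 and 62.6 kb of this window, and 5mC peaks covered 42.2, 55.9 and 19.3 kb. Much of the 5hmC was thus already listed at day 3, together with 5mC. This window and those named next were picked for holding the most regions. Their contrasts between fibroblasts and iPS cells therefore follow in part from the rule. The window on chromosome 11 from 119000001 to 119100000 held 18 regions among 28 such 5mC peaks. 9 of the 18 and 12 of the 28 had day-3 5hmC, and its 5hmC cover was 7.98, 29.8 and 50.2 kb over the 3 stages.

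In 2 other windows the 5hmC cover at day 3 was far below that in iPS cells. On chromosome 5 from 122300001 to 122400000, 4 of 17 regions and 7 of all 27 such 5mC peaks had day-3 5hmC, and 5hmC peaks covered 5.09, 13.7 and 57.1 kb at the 3 stages. On chromosome 6 from 144900001 to 145000000, 3 of 16 regions and 5 of all 22 such peaks had it, and the cover was 4.90, 13.3 and 43.2 kb. Over the same stages the 5mC cover was 39.8, 49.2 and 15.02 kb of the window on chromosome 5, and 23.6, 25.7 and 3.10 kb of that on chromosome 6.

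**Figure D4:**
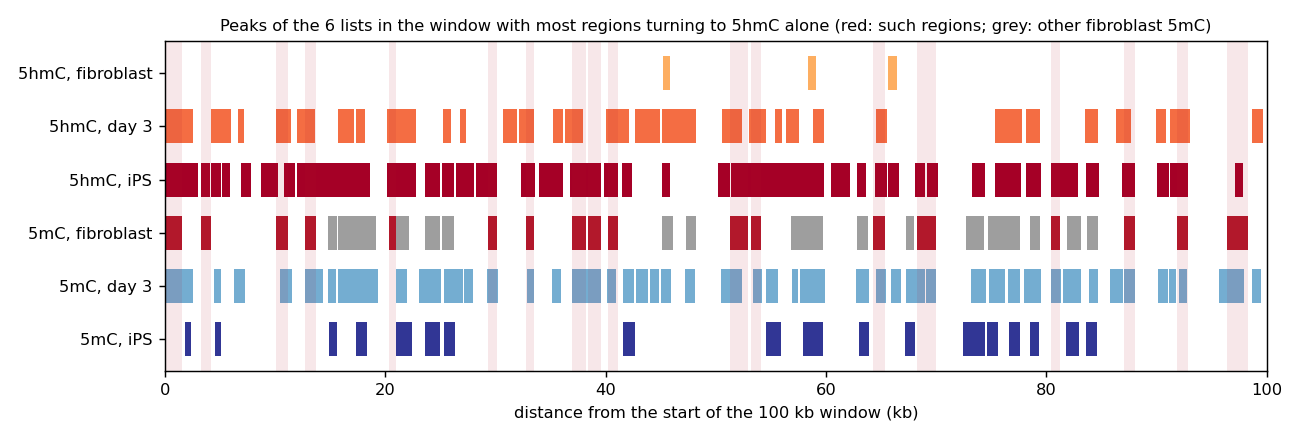
Peaks of the 6 lists (rows) over the 100 kb window with the most regions, on chromosome 8, against distance from the window's start in kb. Red blocks and shaded columns are the fibroblast 5mC peaks with 5hmC alone in iPS cells and grey blocks the other fibroblast 5mC peaks. Day-3 5hmC covers 43.6 kb and iPS 5hmC 62.6 kb of the window, against 2.25 kb for fibroblast 5hmC.

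The 4 regions with the highest fibroblast 5mC score were named for each day-3 state, so that both states appear by choice. The 4 with day-3 5hmC scored 1867 to 2101, above the highest score without it, 1860. With day-3 5hmC, the highest score in the fibroblast 5mC list was 2101, on chromosome 7 from 25864638 to 25867494, a region of 2857 bp. The day-3 5hmC peak covered 2003 bp of it, the day-3 5mC peak 2796 bp and the iPS 5hmC peak 2848 bp. The next was on chromosome 7 from 50929585 to 50933461, with 1253 bp under day-3 5hmC and 2528 bp under iPS 5hmC of its 3877 bp. Those on chromosome 6 from 48545997 to 48548671 and on chromosome 3 from 94975944 to 94978411 had a narrower iPS cover, of 940 and 874 bp, than their day-3 cover of 1314 and 1236 bp.

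Without day-3 5hmC, the highest fibroblast 5mC score was 1860, on chromosome 4 from 41443518 to 41446956. iPS 5hmC covered 768 bp of its 3439 bp, and an iPS 5mC peak lay 249 bp away. The next 3 lay on chromosome 17 from 34807896 to 34810256, on chromosome 9 from 56466748 to 56469371 and on chromosome 5 from 137588305 to 137590791. iPS 5hmC covered 1428, 2413 and 1808 bp of them, and day-3 5mC covered 2361, 2563 and 2487 bp. In these 4 regions the nearest day-3 5hmC peak was 575 to 1918 bp away.

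The widest regions also differed among themselves. The widest, of 4569 bp on chromosome 2 from 174109140 to 174113708, had day-3 5hmC over 2732 bp and iPS 5hmC over only 835 bp. One of 4540 bp on chromosome 16 from 76291575 to 76296114 had 3826 bp under day-3 5hmC and was wholly covered by iPS 5hmC. One of 4453 bp on chromosome 8 from 49220318 to 49224770 had no day-3 5hmC, with the nearest such peak 735 bp away, and 4385 bp under iPS 5hmC. The day-3 5mC peak covered 4569, 4540 and 4120 bp of these 3.

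Between chromosomes the regions varied little. On single autosomes they made up from 34.9% (33.6 to 36.2) of the fibroblast 5mC peaks without fibroblast 5hmC, on chromosome 7, to 39.2% (38.1 to 40.3), on chromosome 5. The share of regions with day-3 5hmC ran from 32.7% (30.6 to 34.8) on chromosome 9 to 40.1% (37.2 to 42.99) on chromosome 19. Chromosome X held 55 regions among 154 such 5mC peaks, or 35.7% (28.6 to 43.5). 10 of the 55 had day-3 5hmC, or 18.2% (10.2 to 30.3), which is below the share of each autosome. The share was not computed for the other 5mC peaks of chromosome X, so it may not be particular to the regions. Chromosome Y held 1 region, without day-3 5hmC.

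**Figure D5:**
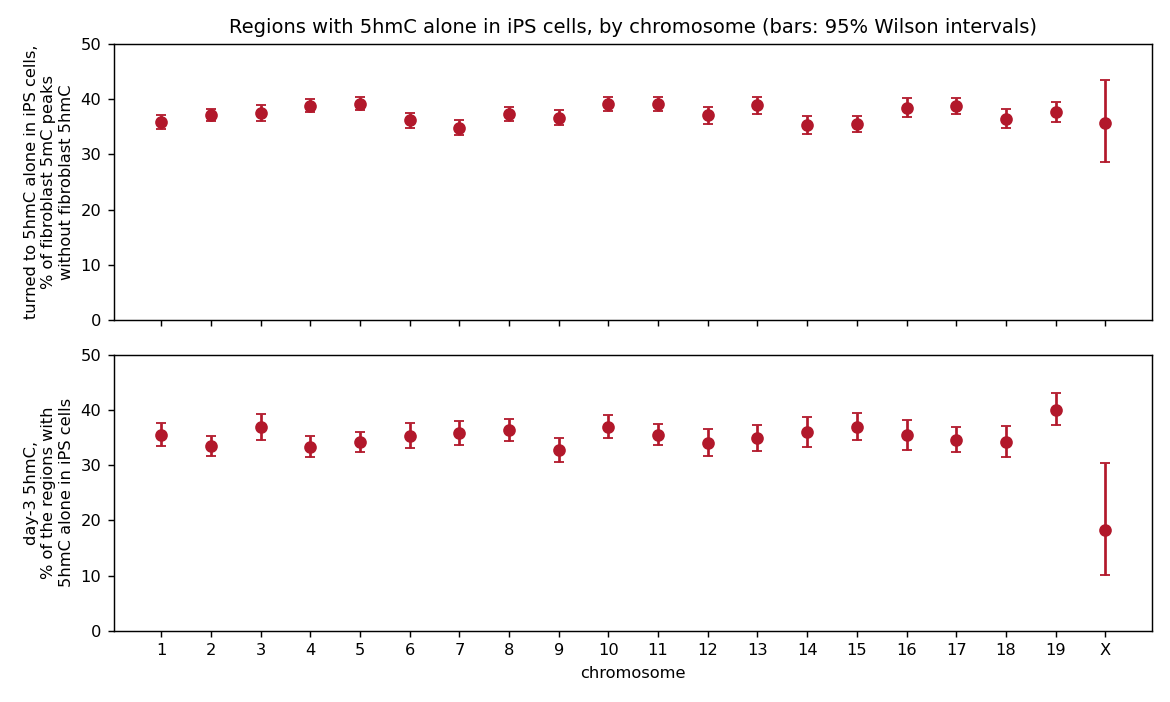
Share of fibroblast 5mC peaks without fibroblast 5hmC that had 5hmC alone in iPS cells (top, %) and share of those regions with day-3 5hmC (bottom, %), by chromosome, with 95% Wilson intervals. The autosomes lie between 34.9% and 39.2% at the top, and at the bottom chromosome X, with 55 regions, lies at 18.2%. Chromosome Y, with 1 region, is not drawn.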

How the data were processed

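Immunoprecipitated genomic DNA of 3 stages was sequenced for 5hmC and 5mC, with 1 library each, grouped by the titles in the labels. Per the submitters' processing notes, reads were handled with Bowtie 0.12.7, MACS 1.4.1 and CASAVA 1.8 on mm9. Each deposited file is a peak list of 1 library with a score per peak, taken to be 10 times −log10 of the peak's p-value as in other output of this MACS version, which the files do not state. The sources used here do not give the caller settings, any input control, duplicate treatment or depth. Deeper libraries give more peaks and higher scores, and capture favours CpG-rich fragments. Scores were used only within a list.

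Overlap meant 1 bp or more. Shares have 95% Wilson intervals, and no p-values were computed. Overlap counting was tested on simulated data and gave the counts of bedtools 2.31.1 for all 5 list pairs. Software was matplotlib 3.10.9, scipy 1.17.1, pandas 2.3.3 and numpy 2.4.6 under Python 3.11.15. The regions, lists and comparisons were chosen with earlier results of these data known. Named regions are the 4 windows with most regions, the 3 longest runs, the 4 best-scoring regions with and without day-3 5hmC, and the 3 widest, with ties in chromosome order. Coordinates are mm9, counted from 1. The reference tables are of another build, so regions were not assigned to genes, the planned gene lists were not used, and no sequences are printed.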

Additional observations from a re-analysis of the deposited data

How the results depend on the processing

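These results are limited by the unknown depth of the lists and by the short fibroblast 5hmC and iPS 5mC lists, on which the absence of these marks rests. Under the 5 other settings of the overlap, the score minimum and the list length and 2 chosen after seeing the data (autosomes only, and weighting to the regions' mix of score and width), the day-3 5hmC share of the regions stayed above that of each other class. When peaks scoring under 100 were dropped there were 19515 regions, of which 56.8% were among the original ones, the others having been excluded by iPS 5mC or fibroblast 5hmC peaks that scored lower. 29.5% of them had day-3 5hmC and 94.5% day-3 5mC, and the day-3 5hmC share was 19.6 points above peaks with 5mC alone and 11.3 above those with neither mark. With each list cut to its 42301 best-scoring peaks there were 8064 regions, with day-3 5hmC in 25.2% and day-3 5mC in 77.4%, now above the 74.03% of peaks with 5mC alone, and the differences were 16.9 and 8.68 points. With at least 50% of the peak covered, day-3 5hmC was found in 29.6%, and the differences to peaks with both marks, 5mC alone and neither mark were 6.9995, 20.6 and 12.2 points. With the centre inside the other peak, 29.98% had day-3 5hmC and 89.7% day-3 5mC, and the differences were 6.57, 20.8 and 12.5 points. Weighting gave 8.33 points to peaks with both marks and 11.03 to those with neither. With no fibroblast 5hmC or iPS 5mC within 500 bp, 30764 regions were left, 34.9% of them with day-3 5hmC. No paired analysis was possible because each stage and mark had 1 library. The causes of these shifts were not tested.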

Other observations

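A further 3997 fibroblast 5mC peaks also had 5hmC without 5mC in iPS cells but overlapped a fibroblast 5hmC peak, and so fell outside the rule. They were 34.5% of the 11591 fibroblast 5mC peaks with fibroblast 5hmC. Day-3 5hmC was found in 62.0% of them (60.5 to 63.5), and day-3 5mC in 89.5%. Among the other peaks with fibroblast 5hmC, day-3 5hmC was found in 60.2% (58.9 to 61.5) of the 5759 with both marks in iPS cells, in 23.1% (20.3 to 26.2) of the 771 with 5mC alone and in 31.4% (28.7 to 34.2) of the 1064 with neither. The share was thus again lowest where iPS cells had 5mC alone. The gap between 5hmC alone and both marks, seen in the peaks without fibroblast 5hmC, was within counting error here.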
